A study of Rattus norvegicus with 98 samples.

Results

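Neutrophils are the white blood cells that enter injured tissue first, and 7 genes whose transcripts mark them were followed in the nasal lining of rats exposed to formaldehyde. The genes were S100a8, S100a9, Mmp8, Cxcr2, Csf3r, Olr1 and Fpr1. They were chosen by name, and every probe set that the annotation of the array gives to one of them alone was taken. This gave 6 probe sets for 6 of the 7 genes, out of 31042 probe sets tested and 14217 named genes. Fpr1, a receptor for bacterial formyl peptides, matched no probe set and was not analysed here.

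A neutrophil is made in the bone marrow, where its granules are filled before the cell is released, and the genes of granule proteins are then largely shut off. S100A8 and S100A9 pair to form calprotectin, the most plentiful protein of the neutrophil cytosol, and stressed squamous epithelium makes it too. Mmp8 encodes the collagenase of the specific granules. Cxcr2, the receptor for the chemokines Cxcl1, Cxcl2 and Cxcl3, guides the mature cell into tissue, and Csf3r is the receptor for the growth factor Csf3. Olr1 encodes a scavenger receptor for oxidised lipoprotein that activated myeloid cells and endothelium can make.

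Male F344/NCrl rats, 8 weeks old, were kept in whole-body chambers with formaldehyde in the air (6 h a day, 5 days a week), or were given 1 dose of fluid into the nostrils. In the first array set of 82 rats, air, 0.7, 2 or 6 ppm was inhaled and tissue was taken at 6 h, 24 h, 5 days, 8 days or 19 days. In the later set of 16 rats, all taken at 6 h, groups of 4 inhaled air or 15 ppm, or received 40 ul per nostril of water or of 400 mM formaldehyde. The 24 groups held 4 rats each, except 5 rats at 2 ppm after 5 days and 5 air rats at 8 days, with 1 Affymetrix Rat230_2 array per rat. The sample was a suspension of cells freed by proteases from level II of the nose after a rinse against blood, mostly transitional and partly respiratory epithelium, without the maxilloturbinate and the olfactory lining. Signal of the epithelial marker Epcam was 11.8 or more on the log2 scale on every array, and that of the keratin Krt5 was 11.07 or more. In such bulk samples more neutrophils and more RNA per neutrophil cannot be told apart.

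Proximal promoters are shown for the members that stand for the patterns of variation described further on, S100a9 and Mmp8 for one and Cxcr2 and Csf3r for another. They are the bases ahead of the annotated start in RefSeq, rat build GRCr8, written 5′ to 3′ along the strand of the gene, from 250 bases upstream. Bases that the gene annotation places inside the gene are left out, so that the Csf3r stretch (156 bases) stops 94 bases and the Mmp8 stretch (233 bases) 17 bases before the start of the promoter table. S100a9 lies at chr2:178490623-178490872 on the minus strand, Cxcr2 at chr9:83178395-83178644, Csf3r at chr5:143582970-143583125 and Mmp8 at chr8:13008640-13008872, the last 3 on the plus strand. Capitals mark GAGGAA, the core bound by the myeloid factor PU.1, or TTGCNNAA, a C/EBP site, on either strand.
S100a9: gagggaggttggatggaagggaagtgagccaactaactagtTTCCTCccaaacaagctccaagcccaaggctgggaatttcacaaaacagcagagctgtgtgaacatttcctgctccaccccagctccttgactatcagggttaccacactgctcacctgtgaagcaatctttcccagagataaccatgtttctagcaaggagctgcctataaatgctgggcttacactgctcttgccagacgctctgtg
Mmp8: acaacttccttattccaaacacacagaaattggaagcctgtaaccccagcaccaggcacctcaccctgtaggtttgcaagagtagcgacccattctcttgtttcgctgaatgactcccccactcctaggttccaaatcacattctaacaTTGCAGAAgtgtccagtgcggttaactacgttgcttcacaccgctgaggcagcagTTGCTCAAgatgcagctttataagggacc
Cxcr2: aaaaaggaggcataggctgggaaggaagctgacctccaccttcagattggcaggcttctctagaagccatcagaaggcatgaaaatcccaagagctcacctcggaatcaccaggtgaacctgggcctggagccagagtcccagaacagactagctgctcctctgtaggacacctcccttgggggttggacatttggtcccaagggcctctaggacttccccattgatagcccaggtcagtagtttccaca
Csf3r: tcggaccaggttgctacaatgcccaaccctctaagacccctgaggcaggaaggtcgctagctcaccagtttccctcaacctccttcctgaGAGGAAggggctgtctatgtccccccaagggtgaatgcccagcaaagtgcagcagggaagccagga

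The search covered all 250 bases ahead of each start, those left out above included. GAGGAA was present for 4 of the 6 genes searched (S100a9, Csf3r, Olr1 and Fpr1), against 23.3% of 33465 rat promoters. TTGCNNAA was present in 1 of 6, Mmp8, which held 2 copies, against 9.22% of all promoters. The AP-1 site TGANTCA was present in Olr1 alone among the 6, against 6.34%, and a consensus of NF-kappaB in 0 of 6, against 1.3%. For Olr1 and Fpr1 the gene annotation places most of the searched bases inside the gene, and their stretches are not shown. The matches of Olr1 lie inside the gene as annotated, and that of Fpr1 does so at least in part. Such matches describe letters in a window and not occupied sites. S100a8 and S100a9 are neighbours, with 0 annotated genes between them.

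The transcripts varied widely among untreated rats. Over the 25 air rats S100a8 signal ran from 7.31 to 9.9 (log2), a 6.03-fold range, and S100a9 from 8.87 to 11.02, a 4.44-fold range. Csf3r ran from 4.5 to 6.95, a 5.48-fold range, Mmp8 from 3.96 to 5.47 (2.85-fold), Olr1 from 3.13 to 4.47 (2.54-fold) and Cxcr2 from 4.23 to 5.52 (2.44-fold). The SD within groups was 0.8 for S100a8, 0.73 for S100a9, 0.66 for Csf3r, 0.46 for Mmp8, 0.43 for Olr1 and 0.35 for Cxcr2, against a median of 0.162 over all probe sets. Between 91.6% (Cxcr2) and 99.2% (S100a8) of all probe sets had a smaller SD. Every comparison of these genes therefore rested on a larger error than that of a typical gene. In limma, 0 of 6 differed among the air groups of the 5 times, where 11.4% of probe sets did (lowest adjusted p 0.311, for Csf3r). An unadjusted p under 0.05 was reached by 0 of 6, against 26.2% of probe sets.

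Instilled formaldehyde gave the highest mean of the 24 groups for all 6 genes. The next was 15 ppm for S100a8, S100a9, Cxcr2 and Csf3r, 6 ppm at 8 days for Olr1 and 6 ppm at 5 days for Mmp8. For S100a8 the means were 11.67 ± 0.49 (SD, n = 4) after instillation, 10.21 ± 0.17 (n = 4) at 15 ppm and 9.77 ± 1.78 (n = 4) at 6 ppm for 5 days, and the lowest was 8.02 ± 0.43 (n = 4) at 0.7 ppm for 6 h. For Csf3r they were 9.01 ± 0.92, 6.6 ± 0.4 and, at 6 ppm for 8 days, 6.21 ± 0.84, down to 4.62 ± 0.17 at 0.7 ppm for 8 days (SD, n = 4 each). Of the 23 steps between neighbours in this order, 1 exceeded the larger SD of its pair of groups for S100a8, S100a9, Cxcr2, Csf3r and Olr1, the step below instillation, and 0 did so for Mmp8. Neighbours in the rest of each order did not differ beyond their spread, which says nothing of groups farther apart.

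**Figure D1:**
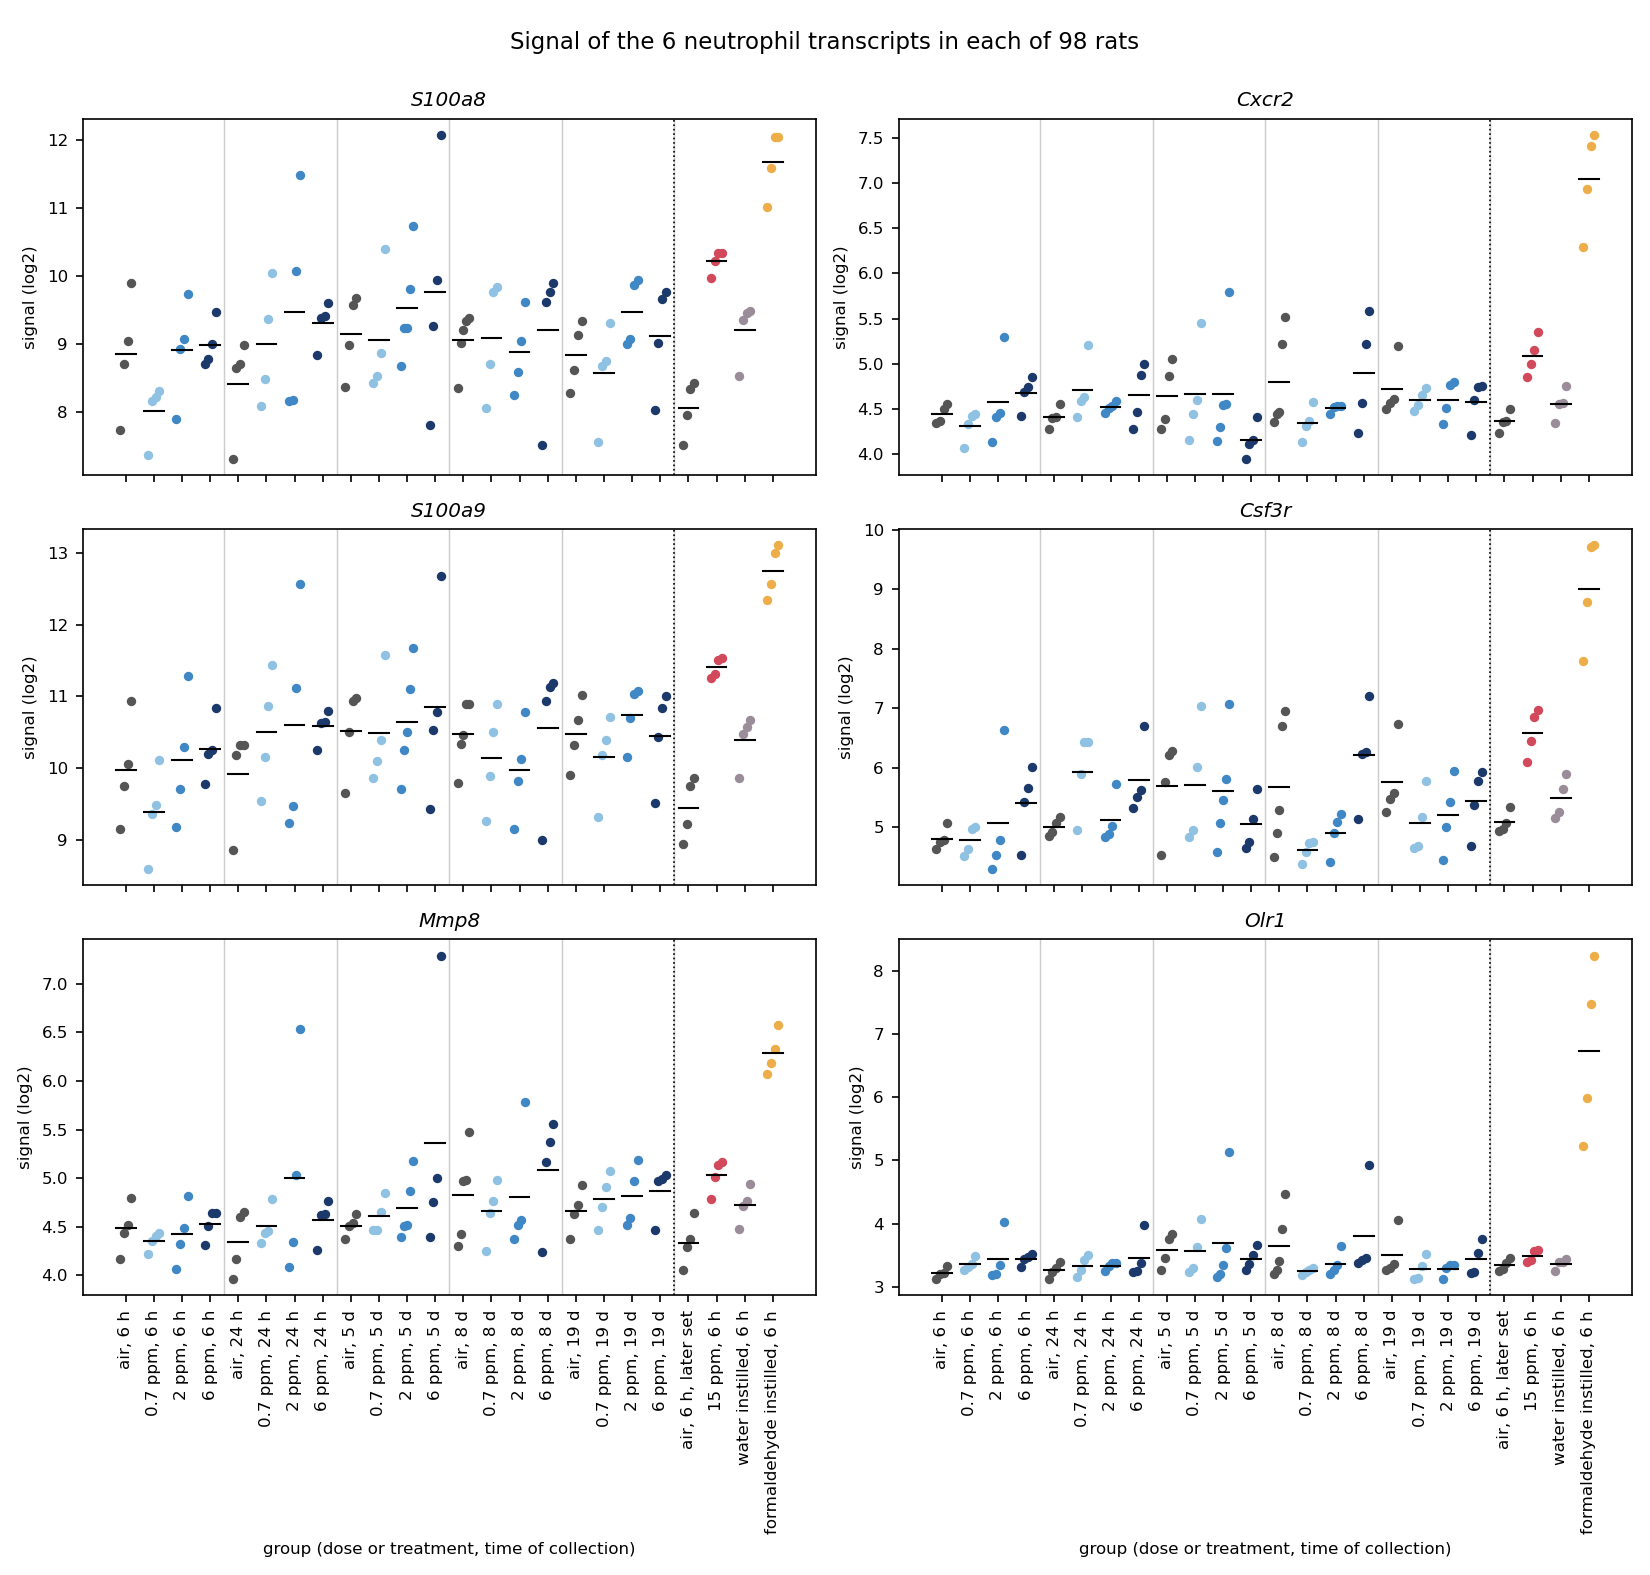
Log2 signal of the 6 transcripts (1 panel each) in every rat (points) with the group mean (black line), by dose or treatment and time; the dotted line separates the later array set. The 4 rats given formaldehyde by instillation sit above all other rats for Cxcr2, Csf3r and Olr1, while rat 293 at 6 ppm and rat 212 at 2 ppm reach or pass their range for S100a8, S100a9 and Mmp8.

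Inhaling 15 ppm for 6 h raised 4 of the 6 transcripts above air of the same array set: both calprotectin genes and the receptors Csf3r and Cxcr2. In this comparison 8.49% of all probe sets were called, 4.32% as higher and 4.17% as lower, and 20.2% had an unadjusted p under 0.05, as 5 of the 6 transcripts had. The median difference of the 6 was 1.11 (log2), against -0.02 over all genes. For S100a8 the air rats measured 7.51, 7.95, 8.33 and 8.43 and the exposed rats 9.97, 10.22, 10.33 and 10.34. All exposed rats lay above all air rats, by a mean of 2.16 ± 0.55 (log2, SE), a 4.47-fold difference (limma, adjusted p = 0.00558). For S100a9 the air rats measured 8.95, 9.23, 9.75 and 9.87 and the exposed rats 11.25, 11.31, 11.51 and 11.54. The groups were again apart, with a difference of 1.95 ± 0.51, or 3.86-fold (adjusted p = 0.00609).

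Csf3r measured 4.94, 4.97, 5.07 and 5.35 in air and 6.1, 6.45, 6.85 and 6.97 at 15 ppm. It rose by 1.51 ± 0.46, 2.85-fold, with no overlap between the groups (adjusted p = 0.0237). Cxcr2 measured 4.23, 4.36, 4.37 and 4.5 in air and 4.86, 5, 5.15 and 5.35 at 15 ppm. The groups did not overlap here either, although the difference was small, 0.72 ± 0.24 or 1.65-fold (adjusted p = 0.0479). The collagenase Mmp8 measured 4.05, 4.29, 4.37 and 4.64 in air and 4.79, 5.01, 5.14 and 5.17 at 15 ppm, a difference of 0.69 ± 0.32 that was not called (adjusted p = 0.191), although a fit of these 8 rats alone called it (0.0125). Olr1 overlapped, at 3.25 to 3.46 in air and 3.39 to 3.58 at 15 ppm, with a difference of 0.15 ± 0.30 (95% interval -0.45 to 0.75, adjusted p = 0.852). In all, 5 of 6 transcripts separated the groups upward, as 8.02% of all probe sets did.

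The Cxcr2 call was the least firm. Leaving out 1 rat ended it in 7 of 8 fits (adjusted p up to 0.146) and ended the Csf3r call in 5 of 8, without exposed rat 338 or 342 or air rat 321, 322 or 325 (up to 0.0766). RNA integrity numbers were 7.3 to 7.8 in air and 7.7 to 8.2 at 15 ppm, and a fit with that number as a covariate, on the 85 arrays that have one, called neither Csf3r (1.25, adjusted p = 0.0896) nor Cxcr2 (0.60, 0.158). On the same 85 arrays with no covariate, a fit added after the values were seen, Csf3r was called (0.0239) and Cxcr2 was not (0.0606). Air rats of the first set in place of the later ones left S100a9 and Csf3r called, with S100a8 at 1.37 (adjusted p = 0.081) and Cxcr2 at 0.64 (0.0609).

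Some markers of other blood and marrow cells were also higher in these 4 rats. The platelet mean was 5.85 to 6.13 at 15 ppm and 5.67 to 5.81 in air. The macrophage and dendritic cell mean was 7.59 in both groups, and the lymphocyte mean was 5.48 at 15 ppm and 5.4 in air. The mean of 9 eosinophil and mast cell genes was 4.49 to 4.71 at 15 ppm and 4.19 to 4.39 in air, led by the eosinophil granule gene Prg2 (difference 1.56, limma, adjusted p = 0.161). In limma 0 of the 9 were called, and 2 had an unadjusted p under 0.05, as 20.2% of probe sets had. Of 5 erythroid genes the globin chaperone Ahsp rose (1.31 ± 0.41, adjusted p = 0.0297), and their mean was 8.69 to 10.2 against 8.12 to 8.93. These ranges overlapped, and rat 337 gave the 10.2, with rat 338 next at 8.95. The mean of the 9 neutrophil granule proteins measured was 5.88 to 6.63 against 5.28 to 5.87. That of 5 antimicrobial peptides among them (Camp, Np4, RatNP-3b, Defa5, Defa7), which were not a planned list of their own, was 5.38 to 6.86 against 4.71 to 5.65. With that mean as a covariate, an analysis added after the values were seen, the 15 ppm difference was 1.46 for S100a8 (adjusted p = 0.0131), 1.37 for S100a9 (0.0188), 1.51 for Csf3r (0.0303), 0.74 for Cxcr2 (0.0506, no longer called) and 0.35 for Mmp8 (0.509). Of 9 squamous and stress genes Sfn alone was called (1.91 ± 0.37, limma, adjusted p = 0.00018). The keratin Krt17 gave 1.42 ± 0.65 (limma, unadjusted p = 0.0321, adjusted p = 0.189). The part of the epithelium in the calprotectin values was not tested.

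Instilled formaldehyde raised all 6 transcripts above instilled water. Here 22.2% of all probe sets were called, 9.83% as higher and 12.4% as lower, and 33% had an unadjusted p under 0.05. The median of the 6 differences was 2.48 (log2), against 0 over all genes. Csf3r measured 5.16, 5.25, 5.65 and 5.9 in the water rats and 7.8, 8.79, 9.72 and 9.74 in the treated rats. The groups did not overlap, and the difference was 3.52 ± 0.46, or 11.5-fold (limma, adjusted p = 4.45e-09). Olr1 lay between 3.25 and 3.44 in water and at 5.23, 5.99, 7.48 and 8.24 after formaldehyde. The treated rats thus spanned a wide range, all of it above water, with a difference of 3.37 ± 0.30 or 10.3-fold (adjusted p = 4.76e-15). The water values lay near the bottom of the scale, where the lowest value of any probe set was 2.67, so this fold has no exact value and was not ranked against the others.

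Cxcr2 measured 4.35, 4.56, 4.57 and 4.75 in water and 6.29, 6.94, 7.41 and 7.53 after formaldehyde, a rise of 2.49 ± 0.24 or 5.6-fold (adjusted p = 2.07e-13). S100a8 went from 8.53, 9.35, 9.45 and 9.48 to 11.01, 11.59, 12.04 and 12.05, a rise of 2.47 ± 0.55 or 5.54-fold (adjusted p = 0.000386). S100a9 went from 9.86, 10.48, 10.58 and 10.67 to 12.34, 12.56, 12.99 and 13.1, a rise of 2.35 ± 0.51 or 5.1-fold (adjusted p = 0.000208). Mmp8 went from 4.48, 4.71, 4.76 and 4.94 to 6.07, 6.19, 6.33 and 6.58, a rise of 1.57 ± 0.32 or 2.97-fold (adjusted p = 7.74e-05). All 6 separated the groups, as 8.94% of probe sets did upward, and each remained called without any 1 of the 8 rats.

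Within the 4 instilled rats S100a8, S100a9, Cxcr2, Csf3r and Olr1 followed 1 order, rat 365 lowest, then 369, 372 and 374. Rats 372 and 374 were nearly equal in S100a8 and Csf3r, and the order was not tested. The antimicrobial peptide mean did not follow that order: it was highest in rat 365, at 6.68, and lowest in rat 374, at 4.97. Its range after formaldehyde (4.97 to 6.68) overlapped that after water (5.21 to 6.87). RatNP-3b differed by -1.24 (limma, adjusted p = 0.348), Np4 by -0.98 (0.395) and Defa5 by -0.84 (0.431), in the direction opposite to the 6 transcripts. Camp gave 0.53 (limma, adjusted p = 0.529) and Defa7 0.05 (0.664), so the peptides did not share a direction, and none was called. Granule proteins outside that mean gave positive differences. Pglyrp1 (2.01), Lcn2 (1.43) and Mmp9 (0.80) rose over water, and Hp gave 0.27 and was not called. Over all 9 granule proteins the mean was 6.26 to 6.99 after formaldehyde and 5.71 to 6.7 after water.

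The effect of 15 ppm and that of instillation were then compared directly, each against its own control. For 2 of 6 transcripts the inhaled effect was smaller, Olr1 by -3.22 ± 0.43 (log2; limma, adjusted p = 2.65e-07) and Cxcr2 by -1.76 ± 0.34 (adjusted p = 0.00136). Across all probe sets 0.879% were called in this comparison, 0.554% as lower and 0.325% as higher, and 9.76% had an unadjusted p under 0.05, as 3 of the 6 transcripts had. Csf3r differed by -2.01 ± 0.65 and was not called (adjusted p = 0.134), but without instilled rat 365 it was (-2.41, adjusted p = 0.0489). Mmp8 differed by -0.88 ± 0.45 (adjusted p = 0.522). The calprotectin genes showed no difference that this design could resolve, -0.31 ± 0.78 for S100a8 (95% interval -1.87 to 1.25) and -0.40 ± 0.71 for S100a9 (-1.82 to 1.02). With the peptide mean as a covariate these became -1.34 (adjusted p = 0.397) and -1.27 (0.424), since the 15 ppm effect was then smaller and the instilled effect larger (2.81 and 2.63). This fit carries the limit given above for it. Against air of the later set in place of water, the instilled difference was 3.62 for S100a8 and 3.29 for S100a9. The routes delivered different, unmatched doses, so dose and route cannot be told apart.

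**Figure D2:**
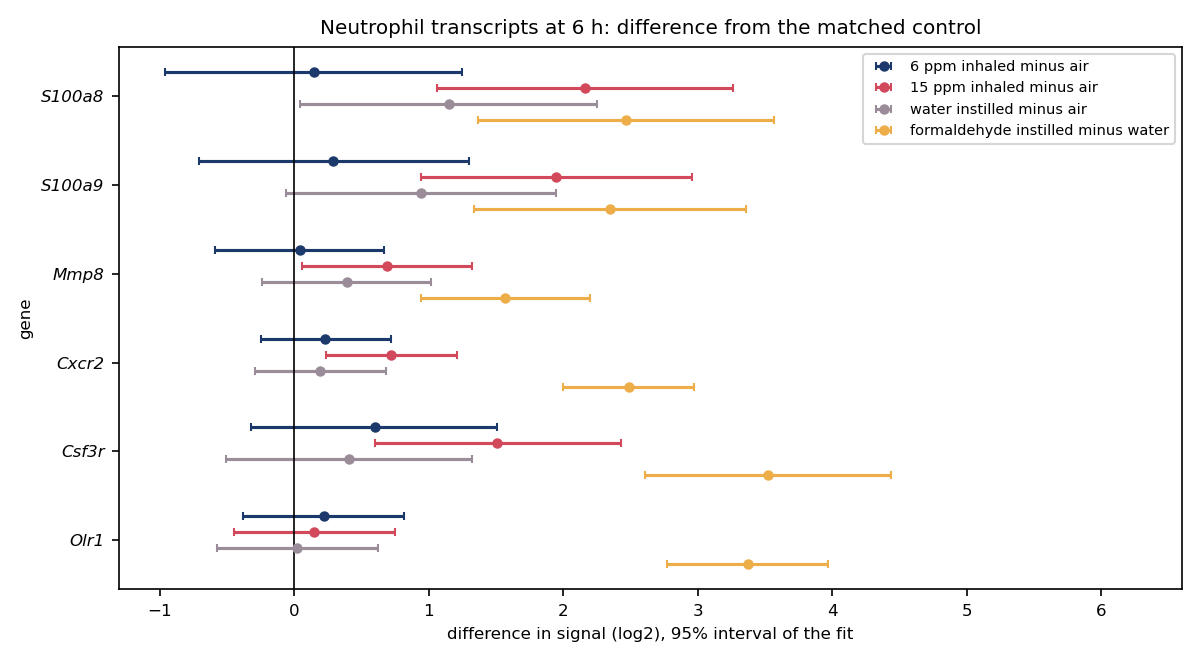
Difference in log2 signal at 6 h (x axis) with its 95% interval for each transcript (y axis), for 6 ppm, 15 ppm and water against air and for instilled formaldehyde against water. Each against its own control, S100a8 and S100a9 show 2.16 and 1.95 for 15 ppm and 2.47 and 2.35 for instillation, and Olr1 shows 0.15 and 3.37.

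Water alone raised none of the 6 past the threshold over air of the same set, where 0.0129% of probe sets were called. S100a8 was nonetheless above every air rat in all 4 water rats, 8.53, 9.35, 9.45 and 9.48 against 7.51 to 8.43, a difference of 1.15 ± 0.55 (limma, adjusted p = 0.463). It was the single transcript of the 6 with an unadjusted p under 0.05, as 10.4% of probe sets had, and the single one that separated the groups, as 5.3% did. S100a9 differed by 0.94 ± 0.51 (adjusted p = 0.517) and Olr1 by 0.02 ± 0.30 (adjusted p = 0.985). The antimicrobial peptide mean was also higher with water, 5.21 to 6.87 against 4.71 to 5.65, and with it as a covariate the S100a8 difference was 0.31. The erythroid mean was 8.86 to 9.8 with water against 8.12 to 8.93 in air, and 0 of its 5 genes were called but 4 had an unadjusted p under 0.05, led by Epb42 (0.93 ± 0.28, adjusted p = 0.223) and Ahsp (1.31 ± 0.41, 0.238). The part of blood in the water values was not tested. The later air rats were not distinguished from the first air rats at 6 h for any of the 6 (0 called in limma, where 4.7% of probe sets were, and 0 at an unadjusted p under 0.05, where 17.3% were, or with every later rat above every first one, where 10.2% were), with the largest gap in S100a8 (-0.79 ± 0.55, adjusted p = 0.499).

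At 0.7, 2 and 6 ppm no transcript passed the threshold at any time. This covers 90 values, 6 transcripts in 15 comparisons, of which 0 were called in limma and 5 had an unadjusted p under 0.05. For 6 h, 24 h, 5 days, 8 days and 19 days in turn, the share of all probe sets called was 0, 0, 0.00644, 0 and 0% at 0.7 ppm, 0.00322, 0, 0.0741, 0 and 0% at 2 ppm, and 0.245, 0.00322, 0.119, 0.029 and 0.412% at 6 ppm. The share with an unadjusted p under 0.05 was 1.32, 6.09, 2.45, 3.29 and 2.64% at 0.7 ppm, 5.61, 5.64, 8.92, 4.24 and 8.64% at 2 ppm, and 12.6, 7.57, 7.24, 6.14 and 11.8% at 6 ppm. The 5 of 90 values with such a p amounted to a share within this range, and 2 of them were below air: Csf3r at 0.7 ppm for 8 days (-1.05 ± 0.46) and Cxcr2 at 6 ppm for 5 days (-0.49 ± 0.24). The other 3 were Csf3r at 0.7 ppm for 24 h (0.92 ± 0.46) and Mmp8 at 2 ppm for 24 h and at 6 ppm for 5 days. Across the 15 comparisons S100a8 differed from air by -0.83 to 1.06, S100a9 by -0.58 to 0.67, Csf3r by -1.05 to 0.92, Mmp8 by -0.17 to 0.84, Cxcr2 by -0.49 to 0.30 and Olr1 by -0.40 to 0.22. Csf3r at 6 ppm for 24 h was the single case of 90 in which every exposed rat lay above every air rat. In the same order of times, 1.68, 1.88, 1.45, 0.438 and 1.06% of probe sets did so at 0.7 ppm, 2.06, 1.39, 1.39, 0.973 and 1.28% at 2 ppm, and 4.3, 2.5, 2.44, 1.01 and 2.15% at 6 ppm. For Csf3r at 6 ppm and 24 h the air rats measured 4.86, 4.92, 5.07 and 5.18 and the exposed rats 5.33, 5.51, 5.63 and 6.7, a difference of 0.78 ± 0.46 (adjusted p = 0.746).

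The lowest adjusted p among the 90 values, 0.494, belonged to Mmp8 at 6 ppm for 5 days, and it came from 1 rat. The exposed rats measured 4.39, 4.75, 5 and 7.29, against 4.37, 4.51, 4.54 and 4.63 in air. The mean difference was 0.84 ± 0.32 with rat 293, the highest, and 0.20 without it. Weighting arrays by their fit gave a larger difference of 1.29, which was called (adjusted p = 0.0325). At 2 ppm for 24 h Mmp8 measured 4.09, 4.34, 5.03 and 6.53 and S100a8 8.16, 8.17, 10.07 and 11.48, in both cases with rat 212 far above the rest. The differences from air were 0.65 ± 0.32 for Mmp8 (adjusted p = 0.88) and 1.06 ± 0.55 for S100a8 (adjusted p = 0.911).

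Averaging the 5 times lowered the error and still left 0 of 6 called at 0.7 ppm (0% of probe sets called), 2 ppm (0.361%) and 6 ppm (6.37%). At 6 ppm the mean difference was 0.42 ± 0.25 for S100a8, 0.31 ± 0.14 for Mmp8, 0.27 ± 0.22 for S100a9, 0.19 ± 0.20 for Csf3r, 0.07 ± 0.13 for Olr1 and -0.01 ± 0.11 for Cxcr2. Mmp8 alone had an unadjusted p under 0.05, as 22.6% of probe sets did (limma, adjusted p = 0.164). At 0.7 and 2 ppm 0 of 6 had one, against 2.84% and 10.7%. The 95% intervals bound the mean effect of 6 ppm to between -0.23 and 0.20 for Cxcr2 and between -0.19 and 0.34 for Olr1. The 6 ppm effect did not vary detectably over the 5 times (F test in limma, 0 of 6 called, lowest adjusted p 0.908, 0.0129% of probe sets called; 0 of 6 at an unadjusted p under 0.05, against 6.1%).

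Whether 15 ppm differed from 6 ppm at 6 h was tested with each effect taken within its array set. The difference of effects was 2.01 ± 0.78 for S100a8 (adjusted p = 0.273), 1.66 ± 0.71 for S100a9 (0.365), 0.91 ± 0.65 for Csf3r (0.715), 0.65 ± 0.45 for Mmp8 (0.702), 0.49 ± 0.34 for Cxcr2 (0.71) and -0.07 ± 0.43 for Olr1 (0.979). None was called, against 1.19% of probe sets, and 2 of 6 had an unadjusted p under 0.05, as 10.3% had. In a fit of the 4 groups alone S100a8 was called (adjusted p = 0.0402). The step from 6 to 15 ppm was thus not resolved by the fit of all groups.

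**Figure D3:**
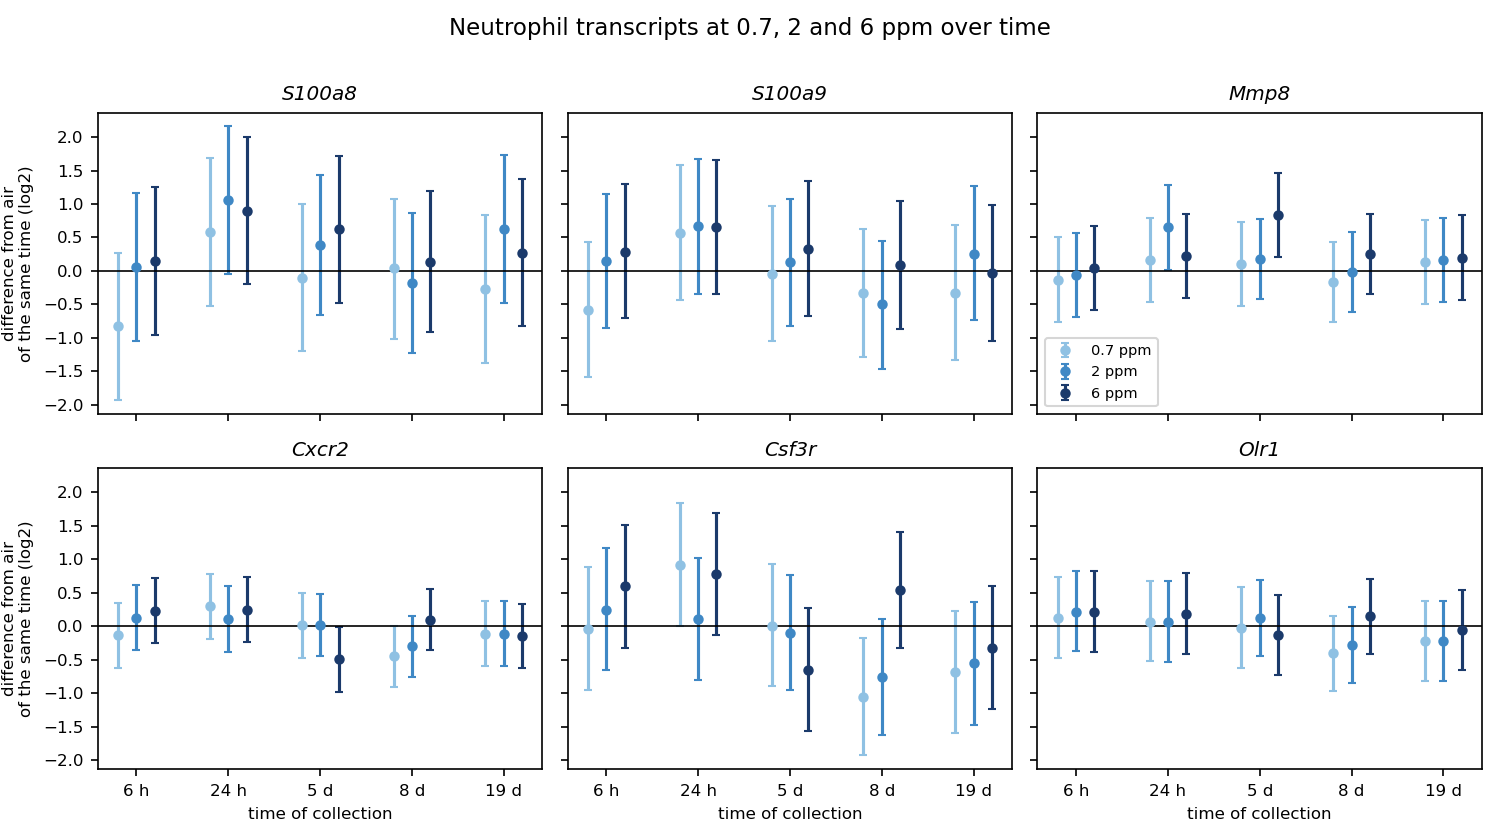
Difference in log2 signal from air of the same time (y axis, bars are 95% intervals) at 6 h, 24 h, 5 d, 8 d and 19 d for 0.7, 2 and 6 ppm, 1 panel per transcript. Intervals span 0 in all but 5 of 90 cases, and the point farthest above 0 relative to its interval is Mmp8 at 6 ppm for 5 d (0.84).

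From rat to rat within a group of the first set the 6 transcripts moved in 2 bundles, most of whose members were also linked, more weakly, across the bundles. Deviations of each rat from its group mean were correlated over the 82 rats of the first set, as part of a family of 45 pairs, with 100000 permutations within groups. S100a8 and S100a9 deviated almost as one (Pearson r = 0.96, Spearman rho = 0.95), and Mmp8 went with them (r = 0.76 and rho = 0.66 with S100a8, 0.75 and 0.66 with S100a9). Cxcr2, Csf3r and Olr1 formed the other bundle, with r = 0.83 and rho = 0.75 for Cxcr2 and Csf3r, 0.83 and 0.72 for Cxcr2 and Olr1, and 0.79 and 0.78 for Csf3r and Olr1. For these 6 pairs every permutation p was 1e-05, the smallest that could be given (adjusted p = 3.21e-05 for r and 3e-05 for rho). Without the 2 rats farthest from the median of the first-named gene, r was 0.96, 0.70, 0.68, 0.80, 0.78 and 0.77 in the order given.

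Across the bundles the links were weaker, and those of Mmp8 with Olr1 and Cxcr2 were not detected. Mmp8 gave r = 0.06 and rho = 0.10 with Olr1 (permutation adjusted p = 0.677 and 0.446), 0.20 and 0.24 with Cxcr2 (0.0608 and 0.0591) and 0.30 and 0.31 with Csf3r (0.00607 and 0.0141). S100a9 lay between, with r = 0.60 and rho = 0.64 to Csf3r (permutation adjusted p = 3.21e-05 and 3e-05) and 0.75 and 0.66 to Mmp8. It also gave 0.50 and 0.53 with Cxcr2 (permutation adjusted p = 3.21e-05 and 3e-05) and 0.36 and 0.44 with Olr1 (0.00311 and 0.00018). The differences between these correlations were not tested. S100a8 gave r = 0.42 and rho = 0.45 with Cxcr2 (permutation adjusted p = 0.000237 and 9.47e-05). With Csf3r it gave 0.47 and 0.50 (permutation adjusted p = 7.5e-05 and 9.47e-05), and with Olr1 0.27 and 0.32 (0.0349 and 0.00768). In the 16 rats of the later set r was 0.93 and rho 0.88 for S100a8 and S100a9 (permutation adjusted p = 0.0256 and 0.106), and no other pair passed after adjustment. There Cxcr2 and Csf3r gave 0.88 and 0.70 (permutation adjusted p = 0.0847 and 0.22), and S100a8 was as close to Cxcr2 (0.70 and 0.65) as to Mmp8 (0.59 and 0.73), so the bundles were not told apart in that set.

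**Figure D4:**
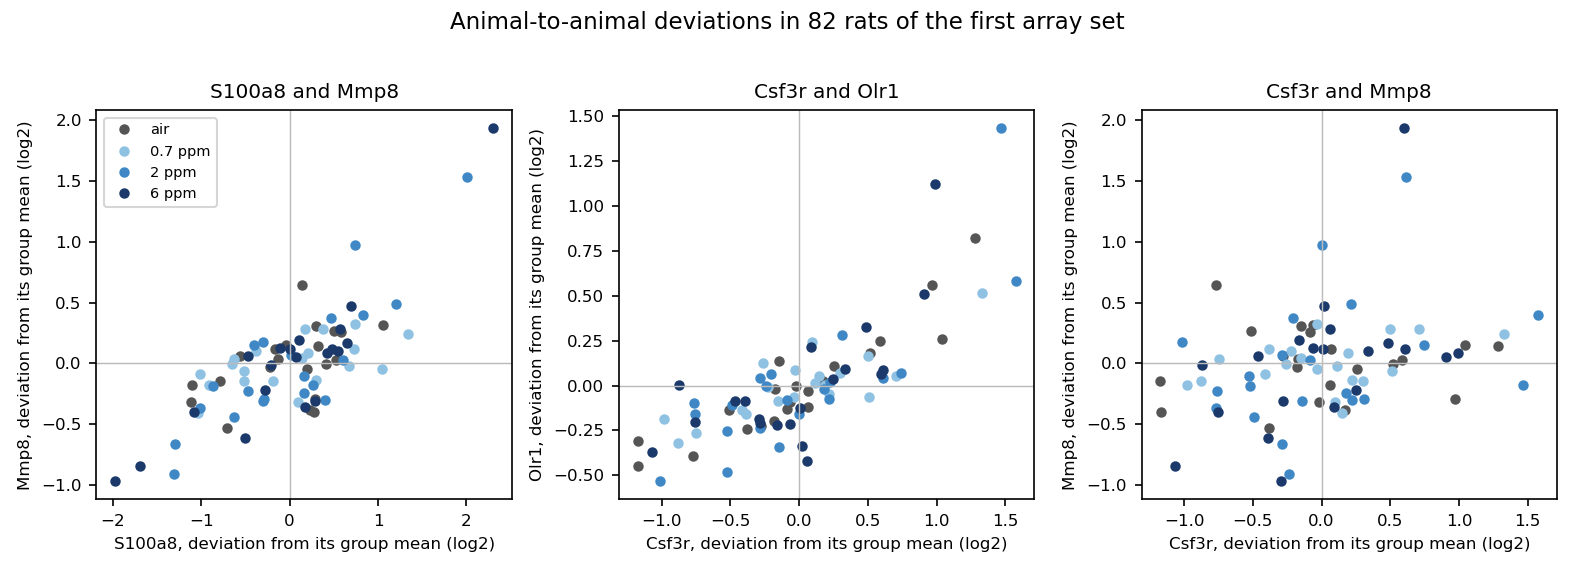
Deviation of each of 82 rats from its group mean (log2) for 3 pairs of transcripts, coloured by air, 0.7, 2 and 6 ppm. S100a8 and Mmp8 (r = 0.76) and Csf3r and Olr1 (r = 0.79) fall along a line, and Csf3r and Mmp8 (r = 0.30) spread widely, with the rats highest in Mmp8 near the middle of the range of Csf3r.

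The ranks of single rats were compared as a description. Of the 8 rats highest in Csf3r among 82, all 8 were among the 8 highest in Olr1 and 0 were among the 8 highest in Mmp8. Cxcr2 and Mmp8 shared 1 of 8, rat 300 (6 ppm, 8 days), while 4 of the 8 highest in S100a8 were among those of Mmp8. S100a9 stood between here too, with 4 of its 8 shared with Mmp8, 4 with Cxcr2 and 3 with Csf3r. The 8 rats high in Csf3r and Olr1 came from air (rats 64, 67 and 76), 0.7 ppm (139), 2 ppm (207 and 217) and 6 ppm (289 and 298). Rat 293 (6 ppm, 5 days) measured 12.07 for S100a8, 12.67 for S100a9 and 7.29 for Mmp8, the highest of the first set for each, with Csf3r at 5.65 and Olr1 at 3.51. Rat 217 (2 ppm, 5 days) had the highest Cxcr2 and Olr1 of that set, 5.8 and 5.13, with Mmp8 at 4.52. Rat 293 thus led in the calprotectin genes and Mmp8 with Olr1 within the range of air, and rat 217 led in Cxcr2 and Olr1, and was second to rat 298 in Csf3r (7.07 against 7.2), with Mmp8 at the median of air.

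In the first set granule peptides and eosinophil genes varied with S100a8, S100a9 and Mmp8. The antimicrobial peptide mean correlated with S100a8 (r = 0.73, rho = 0.64), S100a9 (0.66, 0.56) and Mmp8 (0.63, 0.50), each at a permutation adjusted p of 0.000472 or lower (r = 0.67, 0.57 and 0.48 without the 2 farthest rats), and not detectably with Cxcr2 (-0.03, -0.04), Csf3r (0.03, 0) or Olr1 (-0.03, -0.03; all adjusted p above 0.7). The eosinophil and mast cell mean gave r = 0.71, 0.69 and 0.77 and rho = 0.59, 0.59 and 0.67 with S100a8, S100a9 and Mmp8 (permutation adjusted p = 3.21e-05 for each r; r = 0.63, 0.61 and 0.67 without the 2 rats). The erythroid mean gave r = 0.57, 0.56 and 0.57 and rho = 0.53, 0.51 and 0.56 (5.29e-05 for each r), and also 0.37 and 0.39 with Csf3r (0.00527 and 0.00317). Rat 293 had a peptide mean of 8.16 and rat 212 of 8.56, against 5.53 in rat 217. The macrophage and dendritic cell mean correlated with all 6 transcripts, most with Csf3r (r = 0.61, rho = 0.63, permutation adjusted p = 3.21e-05 and 3e-05, and r = 0.56 without the 2 rats). It gave r = 0.36, 0.43 and 0.31 with S100a8, S100a9 and Mmp8, and 0.43 and 0.46 with Cxcr2 and Olr1 (permutation adjusted p 0.0165 or lower). The squamous mean correlated most with Cxcr2 (0.39 and 0.38, permutation adjusted p = 0.00311 and 0.00364, and r = 0.33 without the 2 rats). The squamous mean gave r = 0.10 and rho = 0.18 with S100a8 (permutation adjusted p = 0.539 and 0.171). In the later set no correlation of the peptide mean was detected (r = 0.27, 0.32 and 0.01 and rho = 0.23, 0.30 and 0.05 with S100a8, S100a9 and Mmp8, permutation adjusted p 0.593 or higher). There the eosinophil and mast cell mean gave r = -0.26, -0.15 and -0.32 with the same transcripts. The erythroid mean gave 0.36, 0.06 and 0.28. None of these was detected (permutation adjusted p 0.314 or higher). The part of these cells in the level of the 6 transcripts was not tested.

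Over the 24 group means, the genes outside the members whose pattern was most like each member were as follows, with Pearson's r as a description that instillation dominates. Members were left out of this ranking, in which S100a8 would have given 0.97 with S100a9 and 0.88 with Mmp8. S100a8 was most like Pglyrp1, a granule peptidoglycan-binding protein (0.91), Lypd8l1 (0.88) and the integrin Itga5 (0.87). S100a9 was most like Rnd1 and Pglyrp1 (0.90 each) and the chemokine receptor Ccr1 (0.89). Mmp8 was most like Pglyrp1 (0.92), the stefin Stfa2l2 (0.88) and the gelatinase Mmp9 (0.85). Cxcr2 was most like Bst1 and the cytokine Osm (0.98 each) and LOC102555751 (0.97), Csf3r like Bst1, Ccr1 and Lilrb4 (0.97 each), and Olr1 like Ebi3 and Osm (0.98 each) and LOC102555751 (0.97). Over the 20 groups of the first set alone, these values fell to between 0.60 and 0.92, and the correlation of Cxcr2 with Mmp8 fell from 0.78 to -0.04.

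Ligands of these receptors and related signals were examined as a list. Of 8 measured neutrophil attractants and growth factors, 3 rose at 15 ppm and all 8 after instillation, where 5.23% and 11.1% of all genes were called higher. Cxcl1 rose by 3.31 ± 0.44 at 15 ppm (adjusted p = 3.87e-08) and by 4.45 ± 0.44 after instillation (3.92e-13), and Cxcl2 by 2.62 ± 0.68 (0.00655) and 4.41 ± 0.68 (4.25e-07). Cxcl3 rose by 0.58 ± 0.13 (0.00118) and 2.18 ± 0.13 (2.2e-23). Csf3, the ligand of Csf3r, rose by 4.2 ± 0.32 after instillation (3.16e-18) and gave 0.70 ± 0.32 at 15 ppm (0.192). The cytokine Il1b gave 1.75 ± 0.66 at 15 ppm (adjusted p = 0.0854) and rose by 4.37 ± 0.66 after instillation (2.08e-07). The chemokine Cxcl6 gave 0.40 ± 0.33 at 15 ppm (adjusted p = 0.569) and rose by 3.13 ± 0.33 after instillation (5.74e-12). For 3 of the 8 the inhaled effect was smaller than the instilled one, Csf3 (-3.5 ± 0.45, adjusted p = 1.51e-07), Cxcl6 (-2.73 ± 0.47, 0.000176) and Cxcl3 (-1.6 ± 0.18, 5.28e-09), where 0.724% of all genes were called lower. Median differences of the 8 were 0.64 and 3.66.

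Other receptors and surface molecules were called mostly after instillation. Of 15 measured, the complement receptor C5ar1 rose at 15 ppm (0.77 ± 0.25, adjusted p = 0.0356), and 10 rose after instillation. Beside these and the counts below, 5.23% of all genes were called higher at 15 ppm and 11.1% after instillation. The 10 included C5ar1 (1.95 ± 0.25, 2.07e-09), the decoy interleukin receptor Il1r2 (3.38 ± 0.46, 1.11e-08), Tnfrsf1b (1.79 ± 0.23, 3.26e-09) and Csf2ra (0.85 ± 0.13, 5.22e-07). The inhaled effect was smaller than the instilled one for 3 of the 15, Tnfrsf1b (-1.6 ± 0.33, adjusted p = 0.00269), Csf2ra (-0.79 ± 0.19, 0.017) and Csf2rb (-0.60 ± 0.15, 0.0311). In that comparison 0.724% of all genes were called lower. Of 4 receptors for calprotectin, Tlr2 rose after instillation (2.95 ± 0.32, adjusted p = 9.98e-12) and 0 were called at 15 ppm (limma, 1 at an unadjusted p under 0.05). Of 5 subunits of the phagocyte NADPH oxidase, which makes superoxide, 0 were called at 15 ppm (1 at an unadjusted p under 0.05) and 4 rose after instillation: Ncf4 (1.77 ± 0.25, adjusted p = 2.8e-08), Rac2 (1.26 ± 0.28), Cybb (0.94 ± 0.31) and Cyba (0.86 ± 0.23).

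Of 9 granule proteins measured, 0 were called at 15 ppm in limma (2 at an unadjusted p under 0.05), where Camp gave 1.14 ± 0.53 (adjusted p = 0.197) and Pglyrp1 0.66 ± 0.32 (0.22). After instillation 3 of 9 rose, where 11.1% of all genes did: Pglyrp1 (2.01 ± 0.32, adjusted p = 6.25e-07), the siderophore-binding Lcn2 (1.43 ± 0.32, 0.000334) and Mmp9 (0.80 ± 0.25, 0.0141). Of 5 myeloid transcription factors, Cebpd rose at 15 ppm (1.18 ± 0.20, adjusted p = 1.23e-05) and Cebpd (1.62 ± 0.20, 8.12e-10) and Cebpa (1.02 ± 0.22, 0.000236) after instillation, genes that epithelium expresses too. Of 5 endothelial adhesion genes, Icam1 rose at 15 ppm (1.05 ± 0.21, adjusted p = 0.00023) and Icam1 (1.78 ± 0.21, 1.72e-10) and Selp (0.57 ± 0.12, 0.000118) after instillation.

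**Figure D5:**
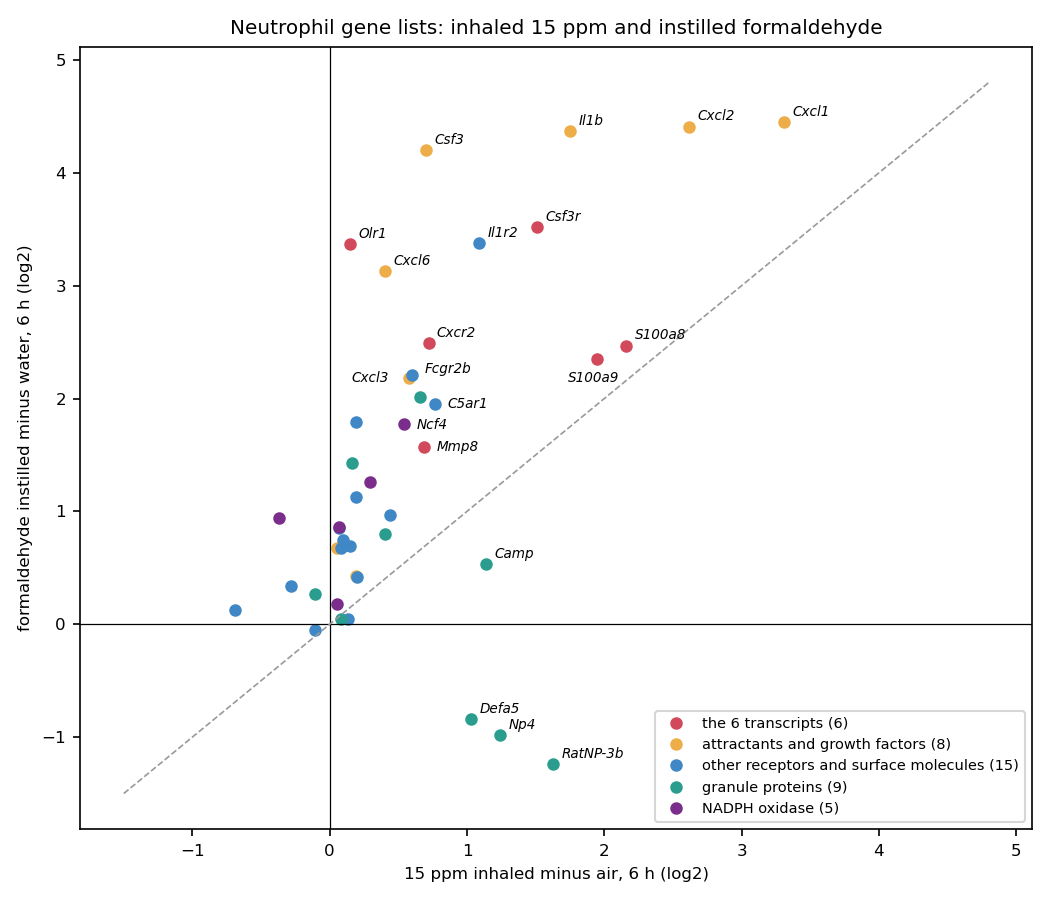
Difference from control at 6 h (log2) for 15 ppm inhaled (x axis) and instilled formaldehyde (y axis), 1 point per gene of the 6 transcripts and 4 neutrophil lists; the dashed line marks equal differences. Olr1 (0.15 and 3.37) and Csf3 (0.70 and 4.2) lie far above the line, S100a8 and S100a9 near it, and the antimicrobial peptides RatNP-3b (1.63 and -1.24), Np4 and Defa5 below it.

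Markers of other cells were counted beside 5.23% of all genes called higher and 5.86% lower at 15 ppm, and 11.1% and 15.1% after instillation. At 15 ppm 0 of 12 macrophage and dendritic cell genes, 0 of 12 lymphocyte genes, 0 of 6 platelet genes and 0 of 9 stromal genes were called in limma (0, 0, 0 and 1 at an unadjusted p under 0.05), and Krt8 (0.34 ± 0.10) and Krt18 (0.33 ± 0.09) rose among 12 genes of nasal epithelium. After instillation 2 of 12 macrophage and dendritic cell genes rose (Itgax 1.57 ± 0.27, which neutrophils can express, and Cd68 0.65 ± 0.20), 2 of 12 lymphocyte genes (Cd3e 0.74 ± 0.28, by 1 of its 2 probe sets, and Cd2 0.60 ± 0.17), 1 of 9 eosinophil and mast cell genes (Ccr3, 0.36 ± 0.10) and 1 of 9 squamous genes (Sfn, 1.71 ± 0.37). The ciliated cell factor Foxj1 fell by 0.66 ± 0.21 and the collagen gene Col1a1 by 0.81 ± 0.26. After instillation 0 of 5 erythroid and 0 of 6 platelet genes were called (0 and 0 at an unadjusted p under 0.05). The mean of the squamous list ran from 8.11 to 10.04 in the rats given formaldehyde and from 7.96 to 8.84 in those given water, and from 7.6 to 8.39 at 15 ppm and 6.7 to 8.79 in air, so that the groups overlapped in both cases.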

How the data were processed

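The authors deposited 1 log2 value for each probe set and array, and these were used unchanged. The labels and headers do not state the background correction, summary or normalization behind them. The values ran from 2.67 to 14.83 and array medians from 5.93 to 6.07, so no further normalization was applied, and 57 control probe sets were left out. Arrays give no counts, and the number of rats limits the precision. Each rat gave 1 array, and no pair of arrays was identical.

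A linear model with 1 coefficient for each of 24 groups, and no covariate, was fitted to the 98 arrays in limma 3.58.1 (R 4.3.3), with 74 residual degrees of freedom. All tests were two-sided, with Benjamini-Hochberg adjustment over 31042 probe sets within each of 26 comparisons and a call under 0.05. For a list gene with several probe sets, the one of highest mean stood for it. Named are the members, up to 4 genes with the smallest p per list and every gene behind a count of 5 or fewer at 15 ppm and after instillation, and the 3 genes outside the members most like each member. Symbols came from the array annotation, updated to RefSeq: 20826 probe sets had 1 symbol, 436 several and 9780 none listed. The members, lists and tests were chosen with earlier results of these data known. The fit was tested on simulated data. Alternatives were quantile and cyclic loess normalization, array weights, a trended robust prior, a filter on dim probe sets, RNA integrity number and peptide level as covariates, the arrays with an integrity number alone, fits of the compared groups alone, other controls, and leaving out each rat. The 0.7 ppm rats at 8 days carry 1 label field that reads another dose, and 0.7 ppm was used. Promoters were matched by symbol for 6 of 7 genes. Figures used matplotlib.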

Additional observations from a re-analysis of the deposited data

Results flagged for a closer look

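Each of the 144 combinations of transcript and group was examined for a rat that stood apart from its group, and 12 such values in 9 rats were found, 6 of them high. Chance alone marks about 1 in 20 groups. The high values were those of Cxcr2 in rat 217 (2 ppm, 5 days), 5.8 against 4.56 for the next rat, and Olr1 in the same rat, 5.13 against 3.62. Rat 76 (air, 19 days) was high in Cxcr2 (5.2 against 4.61) and Olr1 (4.06 against 3.36), rat 298 (6 ppm, 8 days) in Olr1 (4.92 against 3.46) and rat 222 (2 ppm, 8 days) in Mmp8 (5.78 against 4.57). Low values were those of rat 299 (6 ppm, 8 days) for S100a8 (7.51 against 9.62) and S100a9 (9 against 10.94), rat 131 (0.7 ppm, 6 h) for S100a8 (7.37 against 8.16), rat 355 (water) for S100a8 (8.53 against 9.35), rat 54 (air, 24 h) for S100a9 (8.87 against 10.18) and rat 308 (6 ppm, 19 days) for Mmp8 (4.47 against 4.97).

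The effect of 15 ppm and that of instilled formaldehyde differed in a test of the difference for Olr1 (-3.22) and Cxcr2 (-1.76).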

How the results depend on the processing

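No paired analysis was possible because each rat gave 1 array and rat numbers are not shared between groups. Under the alternatives run for it the 6 calls after instillation stayed at 6, as they did without any 1 rat (6 to 6). The 4 calls at 15 ppm became 2 with the RNA integrity number as a covariate (85 arrays; 3 on these arrays with no covariate), 2 with air rats of the first set, 5 when only the compared groups were fitted (Mmp8 gained) and 2 to 4 when 1 rat was left out. The count at 6 ppm over the 5 times went from 0 to 1 with array weights, and that for 15 against 6 ppm from 0 to 1 when only the compared groups were fitted; the causes were not tested. Leaving out 1 rat gave 2 to 3 calls between 15 ppm and instillation and 0 to 0 in all other comparisons. Cxcr2 at 15 ppm was also lost under quantile normalization (0.70, adjusted p = 0.054) and cyclic loess (0.69, 0.0647) and with the peptide covariate (0.74, 0.0506). No called value changed direction. Each transcript has 1 probe set, so the choice among probe sets could not be varied. Of the 6 transcripts, 3 would pass the filter on dim probe sets without the instilled group, so a low signal limits Cxcr2, Olr1 and Mmp8.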

Other observations

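Several list genes have more than 1 probe set, and these did not always move together. Of 5 probe sets of Cxcl3, 3 rose after instillation by 2.04 to 2.18 and the other 2 gave 0.06 and 0.14. Of 3 probe sets of Cebpd, 2 rose by 1.51 and 1.62 and the other gave 0.18. A probe set of Cd8a, a marker of cytotoxic T cells, rose by 0.82 after instillation (limma, adjusted p = 0.00578), while the other 2 gave 0.38 and 0.25. Some genes counted as called after instillation had another probe set that was not called (limma, adjusted p 0.174 or higher). These were Cd3e (0.37), Cyba (0.12), Cybb (0.38), Selp (0.15), Csf2 (0.08) and Col1a1 (-0.44). Each of the 6 neutrophil transcripts has 1 probe set, so no such check could be made for them.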
